A study of Mus musculus with 3 samples.

Results

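Testosterone was compared with its vehicle in the epididymis of castrated mice. Of the 3 RNA-seq libraries of the series, the 2 made from castrated animals were chosen by their labels, with no measured value used. Mice of the outbred ICR strain were adult males, 13 in all, of which 10 lost both testes. Beginning 14 days after surgery, 5 castrated mice received testosterone propionate, an ester that releases testosterone, at 5 mg/kg under the skin on 10 consecutive days (Cas+T), and 5 received the corn oil it was dissolved in (Cas+CO). The third group (Sham, 3 mice) kept its testes after a sham operation, and no injection is given for it. Both libraries compared therefore share castration, and their animals have no testicular fluid or sperm entering the duct. There is 1 library for each group. How many animals it was made from, and from which stretch of the duct, is not stated in the labels. No spread between animals can be given, no test was made, and every difference below is a difference between 2 libraries. Sham values stand beside some results as a level for orientation only.

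The epididymis is the coiled duct in which sperm mature, and its lining secretes large amounts of a few proteins into the lumen. Those cells respond to testosterone and to dihydrotestosterone, the more potent androgen made from it by 5-alpha-reductases, with changes in gene expression. Removing the testes takes away circulating testosterone and also the testicular fluid that feeds the first part of the duct.

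Values are in TPM, a measure of transcripts that is divided by gene length, so that levels of different genes can be set side by side. TPM sums to the same total in each library and keeps no read depth, which is therefore unknown here and leaves no way to give a counting error. A gene entered the comparison if it reached 1 TPM in either library (16165 genes), and its log2 ratio is the difference of log2(TPM + 1), Cas+T minus Cas+CO, which understates the change of low genes. A gene at least 2-fold apart on that scale is called higher or lower. No fold is given against a gene listed at 0.

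Genes at 1 TPM or more numbered 15485 in Cas+CO, 14032 in Cas+T and 13702 in Sham. The Cas+CO library stood apart from the other two in genes of fat and red blood cells, whose summed levels were 2702 and 2732 TPM there, against 206 and 45.2 in Cas+T. The part of these tissues in the differences described here was not tested.

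As deposited, 1114 genes (6.89%) were higher in Cas+T by 2-fold or more and 3786 (23.4%) lower by as much, so higher genes made up 22.7% of those apart. The median log2 ratio of all genes compared was -0.46. After both libraries were scaled to the same median over the 12679 genes at 1 TPM or more in all 3 libraries, which multiplied Cas+T by 1.36 relative to Cas+CO (a shift of 0.45 in log2), 1519 genes (9.4%) were higher and 1928 (11.9%) lower, a share of higher genes of 44.1%. The median ratio was then -0.06. Under both scalings 1059 genes were higher and 1928 lower, and no gene was called in opposite directions (0 genes). The scaling decided 1858 genes that were lower only as deposited, 55 that were higher only as deposited and 460 that were higher only after scaling. A gene listed at 0 in one library passes the minimum only through the other and, as deposited, is called by construction, which holds for 204 of the higher and 292 of the lower genes. At a 10-fold limit the balance was the other way, with 154 genes higher and 129 lower as deposited, and at a 100-fold limit 37 were higher and 4 lower.

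**Figure D1:**
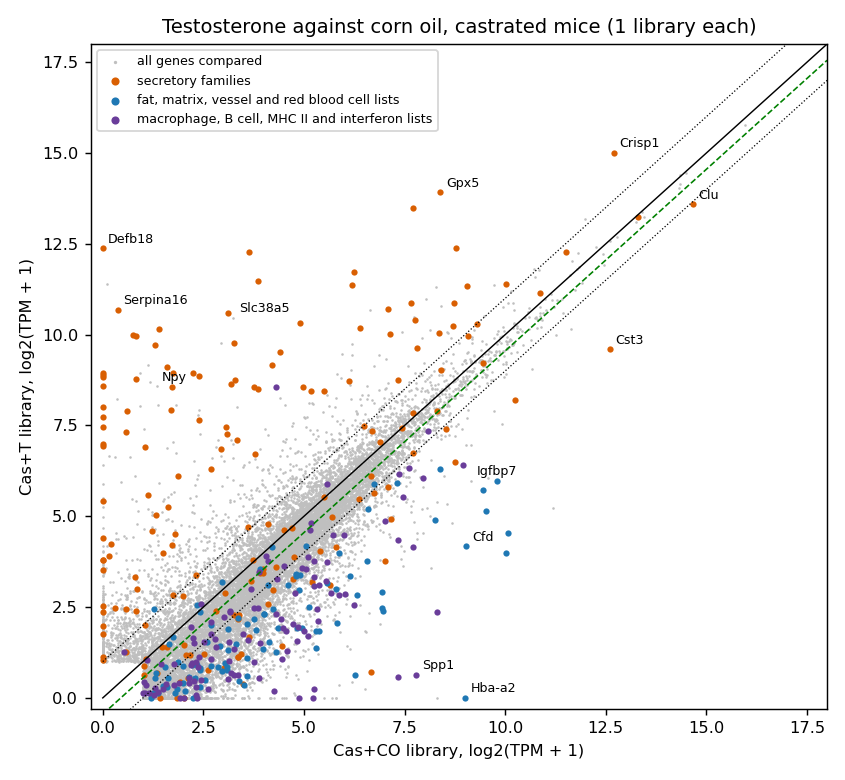
Each point is a gene, with its level in the Cas+CO library on the x axis and in the Cas+T library on the y axis, both as log2(TPM + 1). The solid line marks equal levels as deposited, the dotted lines a 2-fold difference, and the dashed green line equal levels after median scaling. Many secretory family members (orange) lie far above the solid line, and members of fat, matrix, vessel, blood and immune lists (blue and purple) lie mostly below it.

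The direction differed by level. Of the 6108 genes whose higher value lay between 1 and 10 TPM, 7.96% were higher in Cas+T and 32.2% lower. Of the 1467 genes between 100 and 1000 TPM, 13.1% were higher and 11.3% lower. Among the 145 genes over 1000 TPM, 42 (29.0%) were higher and 11 (7.59%) lower. Median scaling kept that order, with 34.5% of the most abundant genes higher and 4.83% lower. Short genes were also more often higher: 17.9% of 1484 genes with under 1000 exonic bases, against 3.73% of 5918 with over 5000. The short genes were slightly more often lower too, at 24.5% against 22.8% as deposited and 14.6% against 10.3% after scaling. On the X chromosome 12.5% of 536 genes were higher, the largest share of any chromosome with 50 or more genes compared, and 20.5% were lower.

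**Figure D2:**
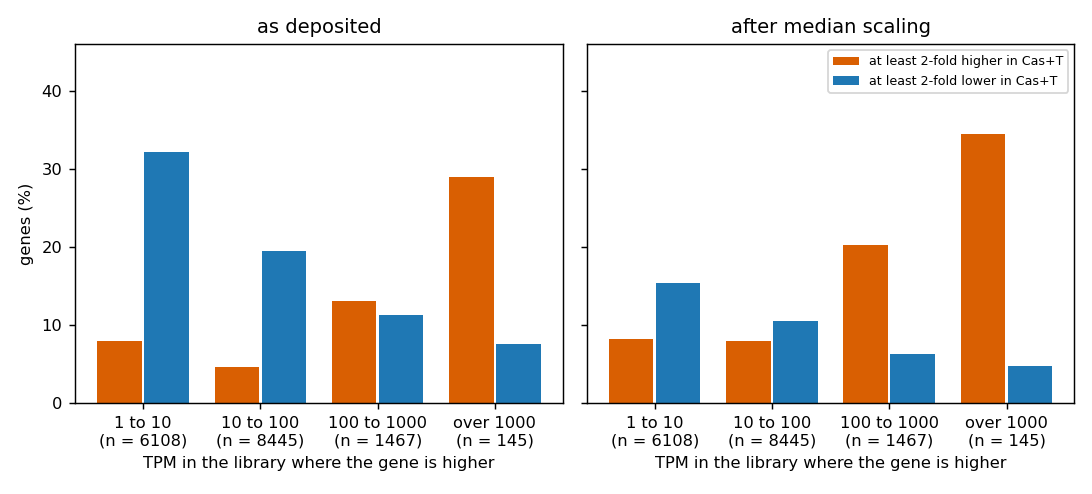
Bars give the percentage of genes at least 2-fold higher (orange) or lower (blue) in Cas+T, in 4 classes by the TPM of the library where the gene is higher (x axis, with the number of genes), as deposited on the left and after median scaling on the right. Lower genes outnumber higher ones under 100 TPM, and higher genes outnumber lower ones above 100 TPM.

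Because TPM has a fixed total, gains and losses balance. The 6100 genes with any gain in Cas+T gained 22.7% of all TPM, and the loss of the same size was spread over 16044 genes. The first 50% of the gain sat in 29 genes, whereas 335 genes were needed for 50% of the loss. The 216 genes of the secretory lists described next held 50.7% of the gain. Their share of all TPM was 6.60% in Cas+CO, 15.9% in Cas+T and 21.1% in Sham. Crisp1, a cysteine-rich protein that coats sperm, gained most: 6654 TPM in Cas+CO against 32799 in Cas+T and 44116 in Sham. Gpx5, a secreted glutathione peroxidase of the epididymis, was next (335 against 15470.1 TPM), followed by Cd52, a small glycoprotein passed to the sperm surface (209.8 against 11541 TPM). The largest loss was that of Clu (clusterin, a secreted chaperone), at 25834 TPM in Cas+CO, 12333 in Cas+T and 8368 in Sham. It was at least 2-fold lower as deposited (log2 ratio -1.07) but not after median scaling (-0.62). The next loss, that of the ATP synthase gene mt-Atp8 (63169 against 55721 TPM), was under 2-fold, and its value is uncertain because nuclear copies of it are listed beside it. Crisp1, Gpx5, Cd52 and Clu are products of the epididymal lining. They were picked here by their TPM differences, which favours abundant genes, so they are no independent check of the tissue.

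Beta-defensins are small cationic antimicrobial peptides, many of which the epididymis makes in place of the gut or skin. Of 32 compared, 26 were higher in Cas+T and 3 lower (after median scaling 27 and 1), with a median log2 ratio 3.95 above that of all genes. Of these 32, 5 were listed at 0 in Cas+CO and, as deposited, are called by construction. Defb18 was listed at 0 with corn oil, and stood at 5333 TPM in Cas+T and 5648 in Sham (GRCm38, chr1:18236473-18237443). Defb43 and Defb45 were also listed at 0 in Cas+CO, and reached 487 and 383 TPM in Cas+T. Defb30 had 1.64 TPM in Cas+CO and 1131 in Cas+T, a 689-fold difference. The higher members lay in every cluster of the family: 2 of 2 on chromosome 1, 8 of 11 on chromosome 2, 11 of 14 on chromosome 8 and 5 of 5 on chromosome 14.

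The family was not uniform. Defb29 went the other way, with 429 TPM in Cas+CO, 89.8 in Cas+T and 220.1 in Sham. Defb25 was low in both libraries (3.16 against 1.28 TPM) while Sham held 789.6 TPM. Defb48 had 4135 TPM in Sham, was listed at 0 in Cas+CO and reached 2.37 TPM in Cas+T, and Defb47 had 1894, 1.83 and 14.8 TPM in the same order. These 3 genes, Defb25, Defb47 and Defb48, stayed far under Sham with testosterone present. Members of the family are close copies, and reads shared between copies may have been split in a way the sources used here do not give.

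Lipocalins, barrel-shaped carriers of small fatty molecules such as retinoids, were higher in 6 of 8 compared. Of these 8, 2 were listed at 0 in Cas+CO and, as deposited, are called by construction. Lcn5, which binds retinoic acid, had 11.4 TPM in Cas+CO and 4949.7 in Cas+T. Lcn6 had 0.53 against 235 TPM, Lcn12 2.34 against 492 TPM, and Lcn10 was listed at 0 against 176 TPM. Ptgds, the prostaglandin D synthase of the family, had 28.8 against 1267 TPM. All of these lie on chromosome 2, where Lcn8 (2188 TPM in Sham) and Lcn9 (2552 TPM in Sham) were listed at 0 with corn oil, and had 0.51 and 0 TPM with testosterone. Rbp4, the retinol carrier of blood, was lower (20.9 against 1.71 TPM).

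Protease inhibitors differed by family. Kazal-type inhibitors were higher in 8 of 10, beside 6.89% of all genes. Of these 10, 4 were listed at 0 in Cas+CO and, as deposited, are called by construction. The higher genes were led by Spink10 (1.44 against 846 TPM), Spink5 (2.03 against 547 TPM) and Spink2 (listed at 0 against 257 TPM). The most abundant Kazal-type gene, Spink8, was nearly level: 10115 TPM in Cas+CO, 9607 in Cas+T and 11874 in Sham. WAP-domain inhibitors were higher in 11 of 17 and lower in 4. Eppin, a sperm-coating inhibitor, had 17.5 against 573 TPM, and Wfdc6a 8.13 against 399 TPM. All 11 higher WAP genes lie on chromosome 2, which holds 14 of the 17 compared. Serpina16 had 0.30 against 1646 TPM and Serpina1f 75.3 against 3360.2 TPM. Clade A serpins as a list were near the median of all genes, with 2 higher and 2 lower of 8. That position depended on low members: with a minimum of 10 TPM the list median lay 5.86 above that of all genes. The summed level of the list was 103 TPM in Cas+CO and 5022 in Cas+T. Among all genes 6.89% were higher and 23.4% lower as deposited. Of 14 other serpins 2 were higher and 7 lower (3 and 5 after scaling), with a summed level of 515 TPM in Cas+CO and 367 in Cas+T.

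Among cystatins, which inhibit cysteine proteases, the direction went against the Kazal and WAP families: none of 5 compared was higher (0) and 3 were lower under both scalings. Cst3 (cystatin C) had 6254 TPM in Cas+CO, 771 in Cas+T and 722 in Sham, so its high value stood in the corn oil library. Cst11 had 1214 TPM in Cas+CO and 296 in Cas+T, against 2704 in Sham, and Cst8 had 9.29, 1.20 and 238 TPM in that order. In these 2 genes the testosterone library was the lowest of the 3. Cst12 differed less (317 against 239 TPM). The transcript 9230104L09Rik, also on chromosome 2, had the same order of libraries, with 2345 TPM in Cas+CO, 36.3 in Cas+T and 3164 in Sham.

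Other secreted and surface products were mixed. Ribonucleases of the A family, small secreted RNA-cleaving or sperm-coating proteins, were higher in 5 of 9 and lower in 3 (1 after scaling). Among the higher were Rnase9 (7.66 against 1547 TPM) and Rnase13 (3.75 against 491 TPM), and among the lower Rnase1, the pancreatic type (25.6 against 8.71 TPM). Rnase10 remained far under Sham, at 0.48 TPM in Cas+CO, 4.41 in Cas+T and 1562 in Sham. Ly6-fold and CD52-type surface proteins were higher in 11 of 23 and lower in 5. Ly6f had 0.67 against 1011 TPM, Lypd8 0.77 against 1005 TPM and Pate2 2.26 against 241 TPM. Adam7, a membrane protein of the ADAM family that is transferred to sperm, had 13.6 against 2825 TPM. Its relative Adam28 had 2.97 against 5.94 TPM beside 505 in Sham. Crisp4 had 0.48 against 158 TPM, whereas Crisp3, the salivary and immune cell member of the CRISP family, was lower (100.03 against 0.65 TPM). Genes typical of seminal vesicle and prostate summed to 2.33 TPM in Cas+CO, 163 in Cas+T and 195 in Sham, led by Spinkl, a Kazal-type gene (1.07, 119 and 95.7 TPM).

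Smaller groups of the lumen and sperm surface followed. All 3 Teddm genes, epididymal membrane proteins, were higher. Each was under 1 TPM in Cas+CO and entered the comparison only through Cas+T, so their common direction is no family result. Teddm1b, listed at 0 in Cas+CO, had 469 TPM with testosterone and 272 in Sham. Teddm1a had 0.12 TPM in Cas+CO, 14.1 in Cas+T and 1195 in Sham, and Teddm2 0.24, 4.57 and 475 TPM, so these stayed far under Sham. Among other luminal and sperm-coating genes 15 of 30 were higher and 4 lower. Bsph2, a binder of sperm, was listed at 0 against 212 TPM, and Clpsl2, a colipase-like protein, at 0 against 457 TPM. Cuzd1, a zona pellucida-like membrane protein, had 441 TPM in Cas+CO, 5374 in Cas+T and 5359.8 in Sham, and Itm2b, an integral membrane protein, 4037, 9241 and 9247 TPM. In both the Cas+T level lay beside that of Sham. Abcb5, a membrane transporter, had 1.26 against 409.9 TPM.

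**Figure D3:**
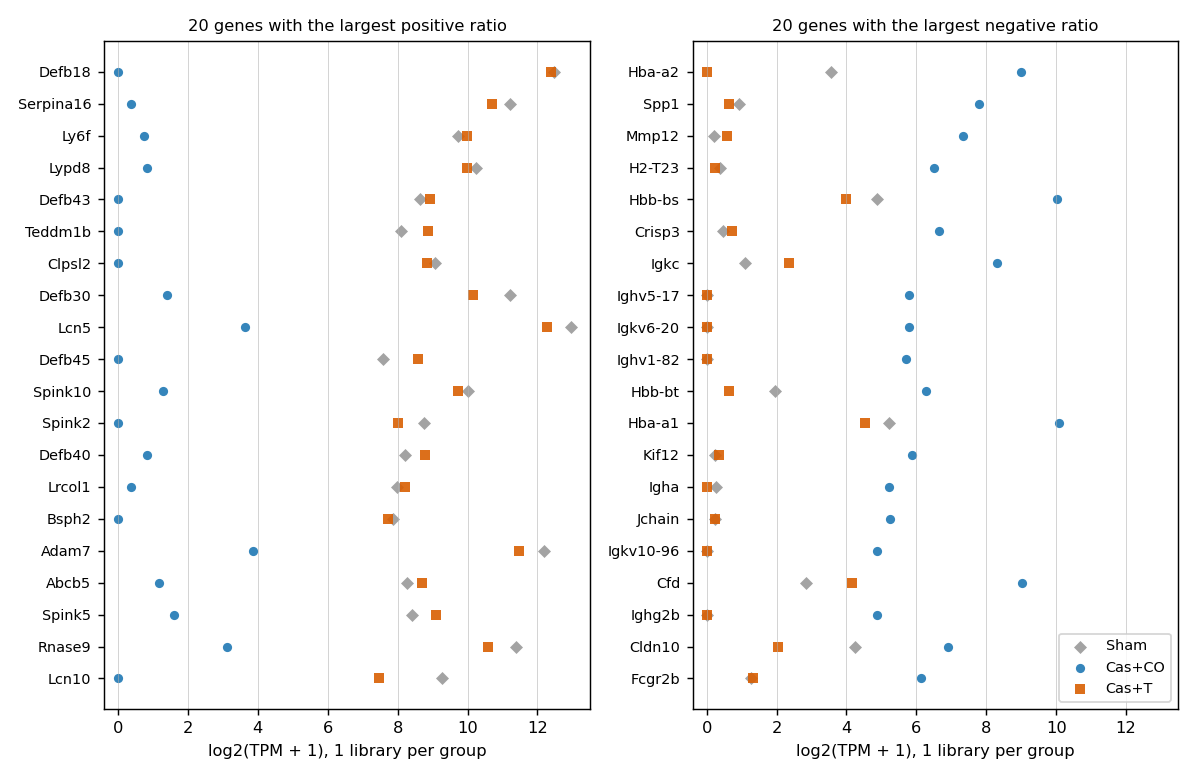
Levels of the 20 genes with the largest positive (left) and negative (right) log2 ratio among named genes that reach 10 TPM, as log2(TPM + 1), 1 point per library. On the left every Cas+CO value lies far under both other libraries, and on the right every Cas+CO value lies above both.

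The promoters of some of these genes can be read beside their values, since receptors of several steroid hormones bind DNA at hexamers close to AGAACA. That hexamer (AGAACA, or TGTTCT on the other strand) was searched on both strands in the 300 bases from 250 before to 50 after the start of each gene, in RefSeq sequences of GRCm38.p6. It stands in 19.0% of all 32851 promoters of that length. The inverted repeat of it with 3 bases between (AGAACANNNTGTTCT) stands in 3. A promoter was matched by symbol for 11527 of the 16165 genes compared (71.3%), and for 713 of the 1114 higher genes (64.0%). Since fewer than 80% had a sequence, a comparison of motif shares between higher and lower genes is void and is not given. Shown with the hexamer in capitals are the 3 genes of largest ratio that hold one (Serpina16, Lypd8 and Defb43), Crisp1 as the largest gain, Rhox5, a homeobox gene used as a marker of androgen action, and Cst3 as a gene lower with testosterone. They lie at chr12:103676713-103677012 on the minus strand (Serpina16), chr11:58378782-58379081 on the plus strand (Lypd8), chr14:63011521-63011820 on the plus strand (Defb43), chr17:40319158-40319457 on the minus strand (Crisp1), chrX:37754358-37754657 on the plus strand (Rhox5) and chr2:148875463-148875762 on the minus strand (Cst3), and each is read 5′ to 3′ on the strand of its gene.
Serpina16: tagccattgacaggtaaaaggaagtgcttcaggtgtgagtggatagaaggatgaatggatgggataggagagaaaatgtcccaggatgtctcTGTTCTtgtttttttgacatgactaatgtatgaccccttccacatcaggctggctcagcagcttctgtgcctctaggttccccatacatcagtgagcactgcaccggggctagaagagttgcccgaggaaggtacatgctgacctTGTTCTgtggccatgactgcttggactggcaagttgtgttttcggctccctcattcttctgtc
Lypd8: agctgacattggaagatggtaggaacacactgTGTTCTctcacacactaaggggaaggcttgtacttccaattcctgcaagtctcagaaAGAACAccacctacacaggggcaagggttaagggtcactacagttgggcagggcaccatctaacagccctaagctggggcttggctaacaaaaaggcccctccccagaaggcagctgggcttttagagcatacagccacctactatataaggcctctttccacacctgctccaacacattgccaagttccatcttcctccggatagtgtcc
Defb43: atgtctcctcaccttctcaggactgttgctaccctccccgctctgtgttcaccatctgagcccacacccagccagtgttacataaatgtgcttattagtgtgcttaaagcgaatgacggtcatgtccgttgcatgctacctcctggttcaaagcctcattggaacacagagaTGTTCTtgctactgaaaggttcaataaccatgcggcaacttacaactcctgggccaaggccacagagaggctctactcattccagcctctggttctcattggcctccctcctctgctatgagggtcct
Crisp1: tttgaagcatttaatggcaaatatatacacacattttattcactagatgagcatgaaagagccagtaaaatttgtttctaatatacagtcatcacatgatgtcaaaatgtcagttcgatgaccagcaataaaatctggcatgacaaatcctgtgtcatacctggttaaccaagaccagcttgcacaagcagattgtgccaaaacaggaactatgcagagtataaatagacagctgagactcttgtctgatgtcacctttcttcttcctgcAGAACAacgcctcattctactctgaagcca
Rhox5: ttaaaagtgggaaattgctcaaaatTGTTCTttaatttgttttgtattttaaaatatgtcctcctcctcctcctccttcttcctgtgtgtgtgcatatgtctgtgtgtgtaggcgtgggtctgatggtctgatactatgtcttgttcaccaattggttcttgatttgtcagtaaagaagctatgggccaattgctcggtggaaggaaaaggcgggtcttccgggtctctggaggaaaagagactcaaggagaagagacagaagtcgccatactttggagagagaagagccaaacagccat
Cst3: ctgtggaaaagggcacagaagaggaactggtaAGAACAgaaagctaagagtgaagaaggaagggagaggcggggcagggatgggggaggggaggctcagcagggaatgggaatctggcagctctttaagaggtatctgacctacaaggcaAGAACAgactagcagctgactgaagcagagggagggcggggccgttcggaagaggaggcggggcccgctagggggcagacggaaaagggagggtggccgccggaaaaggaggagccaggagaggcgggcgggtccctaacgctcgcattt
The table holds 2 entries for Lypd8, of which the one with the hexamer is shown. Counted from the RefSeq start of the gene, the first base of the match lies 158 and 13 bases upstream in Serpina16, 218 and 161 upstream in Lypd8, 78 upstream in Defb43, 225 upstream in Rhox5 and 218 and 100 upstream in Cst3, and at position 21 downstream in Crisp1. In GENCODE M21 the gene Serpina16 begins at chr12:103676139 on the minus strand, outside the stretch shown. Serpina16, Lypd8 and Defb43 were picked for holding a hexamer, and Crisp1, Rhox5 and Cst3 by hand. Their counts therefore allow no comparison of higher with lower genes. A match is a string of letters and not a measured binding site.

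Genes of hormone reception and conversion lay in both directions. Nr3c1 (glucocorticoid receptor) had 32.8 against 11.8 TPM and Esr1 (oestrogen receptor alpha) 45.9 against 20.3 TPM. Both were at least 2-fold lower as deposited, but not after median scaling, with ratios of -0.96 and -0.69. Fkbp5, a co-chaperone of steroid receptors that androgens and glucocorticoids induce, was higher, at 53.7 against 254 TPM. Over the whole receptor list 1 gene was higher and 6 lower of 14 as deposited, and 1 and 2 after median scaling. Among all genes 6.89% were higher and 23.4% lower as deposited, and 9.4% and 11.9% after scaling. The median of the receptor list minus that of all genes was -0.11 as deposited and -0.09 after scaling, so the list counted as neither higher nor lower.

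Steroid-converting enzymes had 10 higher and 6 lower members of 22 (11 and 3 after scaling). The 5-alpha-reductases that make dihydrotestosterone were higher: Srd5a2 with 26.3 against 105 TPM and Srd5a1 with 7.19 against 18.3 TPM. Cyp17a1, the enzyme that turns progestins into androgens, had 0.76 TPM in Cas+CO, 41.8 in Cas+T and 49.5 in Sham. Sult1e1, which sulfates oestrogens, had 3.44 against 25.6 TPM, and Akr1c12, an aldo-keto reductase, 9.92 against 56.9 TPM. On the lower side stood Hsd11b1 (30.7 against 11.9 TPM) and Hsd11b2 (7.11 against 0.62 TPM), which regenerate and inactivate glucocorticoids. After median scaling Hsd11b1 was under 2-fold apart.

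Classical androgen targets of other organs had no common direction, with 4 higher and 7 lower of 20 under the deposited values (5 and 4 after scaling). Both shares lay above those of all genes, 6.89% higher and 23.4% lower as deposited (9.4% and 11.9% after scaling). Rhox5 was listed at 0 in Cas+CO and had 4.72 TPM in Cas+T and 4.79 in Sham. Sgk1, a kinase that controls ion transport, was higher (36.3 against 154 TPM). Kap, the kidney androgen-regulated protein, was lower: 89.8 TPM in Cas+CO, 2.57 in Cas+T and 3.93 in Sham. Steap4, a metalloreductase induced by androgen in prostate lines, was also lower (39.3 against 2.96 TPM), as was Ndrg1, a stress and differentiation gene (245 against 35.5 TPM). Oestrogen-responsive genes were split: Ltf (lactoferrin, an iron-binding protein of secretions) had 60.2 against 701 TPM and Pdzk1 45.6 against 348 TPM, while C3 had 179.6 against 15.6 TPM.

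Genes that respond in the initial segment, the first part of the duct, to factors of testicular fluid gave no common direction, 8 higher and 5 lower of 24. Ggt1, a glutathione-cleaving enzyme, had 12.7 TPM in Cas+CO, 104 in Cas+T and 82.7 in Sham. Ovch2 had 0.78, 4.23 and 150.1 TPM in the same order of libraries, and Etv5, a transcription factor downstream of FGF signalling, 4.68, 5.03 and 51.2 TPM. Etv4 was at 2.14 TPM in Cas+CO, 0.56 in Cas+T and 7.90 in Sham. Together with Defb47, Defb48, Rnase10, Adam28, Cst8, Lcn8, Lcn9, Teddm1a and Teddm2 these 3 genes (Ovch2, Etv5 and Etv4) form a set whose Cas+T level stayed far under Sham. That set was put together after its values were seen.

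The machinery that makes, folds and exports secreted proteins had list medians above that of all genes, though few members were 2-fold apart. Of 23 endoplasmic reticulum (ER) folding and disulfide genes 6 were at least 2-fold higher as deposited and 12 after scaling, and none was lower under either scaling (0). Pdia6, a protein disulfide isomerase, had 399 against 962 TPM. Manf, an ER-resident secreted factor, had 252 against 599 TPM, and Sdf2l1 37.8 against 104 TPM. The translocon and signal recognition particle list had 0 higher genes as deposited and 7 of 23 after scaling, with a median 0.86 above all genes. Medians of N-glycosylation genes lay 0.63 above and those of vesicle coat and Golgi genes 0.66 above. Lman2, a cargo lectin, was the clearest of these (76.8 against 236 TPM). Of 30 N-glycosylation genes 0 were higher as deposited and 4 after scaling. With no minimum TPM the medians of the N-glycosylation and the vesicle coat and Golgi lists lay only 0.44 and 0.47 above. Genes of the unfolded protein response and ER-associated degradation were within the 0.5 limit (0.43), and so were ribosomal proteins (0.18) and ribosome biogenesis (0.08).

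Cholesterol synthesis was among the strongest metabolic lists, with 9 of 20 genes higher as deposited and 16 after scaling. Nsdhl, a sterol dehydrogenase, had 25.6 TPM in Cas+CO, 189 in Cas+T and 217 in Sham. Acat2, which makes the acetoacetyl-CoA that feeds the pathway, had 36.6 against 269 TPM, and Fdps, the farnesyl diphosphate synthase, 71.5 against 297 TPM. Cyp51, which removes a methyl group from lanosterol, had 13.2 against 54.0 TPM. Soat1, the enzyme that stores cholesterol as ester, was lower (201 against 38.2 TPM), while Npc2, a cholesterol carrier secreted into the lumen, was higher (222 against 789.7 TPM). Acly, which supplies cytosolic acetyl-CoA, had 93.5 against 385 TPM, though fatty acid synthesis as a list stood only 0.37 above all genes.

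Several enzymes of serine synthesis and one-carbon metabolism were higher: Phgdh (22.3 against 139 TPM), Psat1 (146 against 319 TPM) and Psph (13.2 against 81.2 TPM), which are the successive enzymes from 3-phosphoglycerate to serine, and the mitochondrial folate enzymes Shmt2 (39.7 against 108 TPM) and Mthfd2 (57.3 against 155 TPM). The amino acid list had 8 of 19 members higher and 0 lower. Of 13 polyamine enzymes 4 were higher and 2 lower (4 and 1 after scaling), with a median 0.13 above that of all genes. Among all genes 6.89% were higher and 23.4% lower as deposited, and 9.4% and 11.9% after scaling. Odc1, the first enzyme of the pathway, had 83.6 against 190.0 TPM and spermidine synthase Srm 15.9 against 50.9 TPM.

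Transporters gave some of the largest single differences while the median of the solute carriers lay only 0.18 above that of all genes, with 35 higher and 64 lower of 252 as deposited and 52 and 35 after scaling, beside 6.89% and 23.4% of all genes as deposited and 9.4% and 11.9% after scaling. Slc38a5, a glutamine and glycine exchanger, had 8.47 TPM in Cas+CO, 1415 in Cas+T and 966 in Sham. Slc2a3, a high-affinity glucose transporter, had 2.26 against 48.4 TPM, beside Hk2, which phosphorylates glucose, with 8 against 40.7 TPM. Slc9a3, the sodium-proton exchanger of the efferent and epididymal lining, had 0.50 against 20.1 TPM, and the carbonic anhydrase Car4 4.17 against 221 TPM. Car3, an isoform abundant in fat and muscle, was lower (738 against 34.2 TPM). Water channels were split as well: Aqp2 had 21.0 against 112 TPM and Aqp9 59.8 against 135 TPM, but Aqp1 44.2 against 5.27 TPM.

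Glutathione peroxidases were higher in 4 of 7 and lower in 0. Beside Gpx5, Gpx3, the plasma type, had 263 TPM in Cas+CO, 2011 in Cas+T and 3411 in Sham. Within the glutathione transferases the mu class stood out, Gstm7 with 99.5 against 1638 TPM, Gstm2 with 339.5 against 1755 TPM and Gstm6 with 35.6 against 279 TPM, while the theta member Gstt1 was lower (57.8 against 7.12 TPM). These mu genes are close copies side by side on chromosome 3, so their separate values are uncertain. Nuclear-encoded subunits of oxidative phosphorylation had a median 0.58 above all genes, with 5 higher and 2 lower of 83 (9 and 1 after scaling). The share of higher members was near that of all genes (6.89%, and 9.4% after scaling), and that of lower members under it (23.4% and 11.9%). With no minimum TPM the list median lay only 0.37 above that of all genes. Mitochondrially encoded genes stayed within the limit (0.25), as did glycolysis (0.48, and 0.52 after scaling) and the TCA cycle (0.33).

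Cell division genes were low but mostly higher in Cas+T: 15 of 29 were higher and 0 lower, with a summed level of 50.8 TPM in Cas+CO, 121 in Cas+T and 72.5 in Sham. Cdk1, the kinase that drives entry into mitosis, had 1.46 against 14.4 TPM. Mki67, a marker of dividing cells, had 0.48 against 3.04 TPM and cyclin A2 (Ccna2) 0.96 against 6.55 TPM. DNA replication genes stayed within the limit (0.40). Among the histones Hist2h2aa2 was listed at 0 in Cas+CO and Sham and had 127 TPM in Cas+T. It has a near-identical copy, and its value is uncertain.

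**Figure D4:**
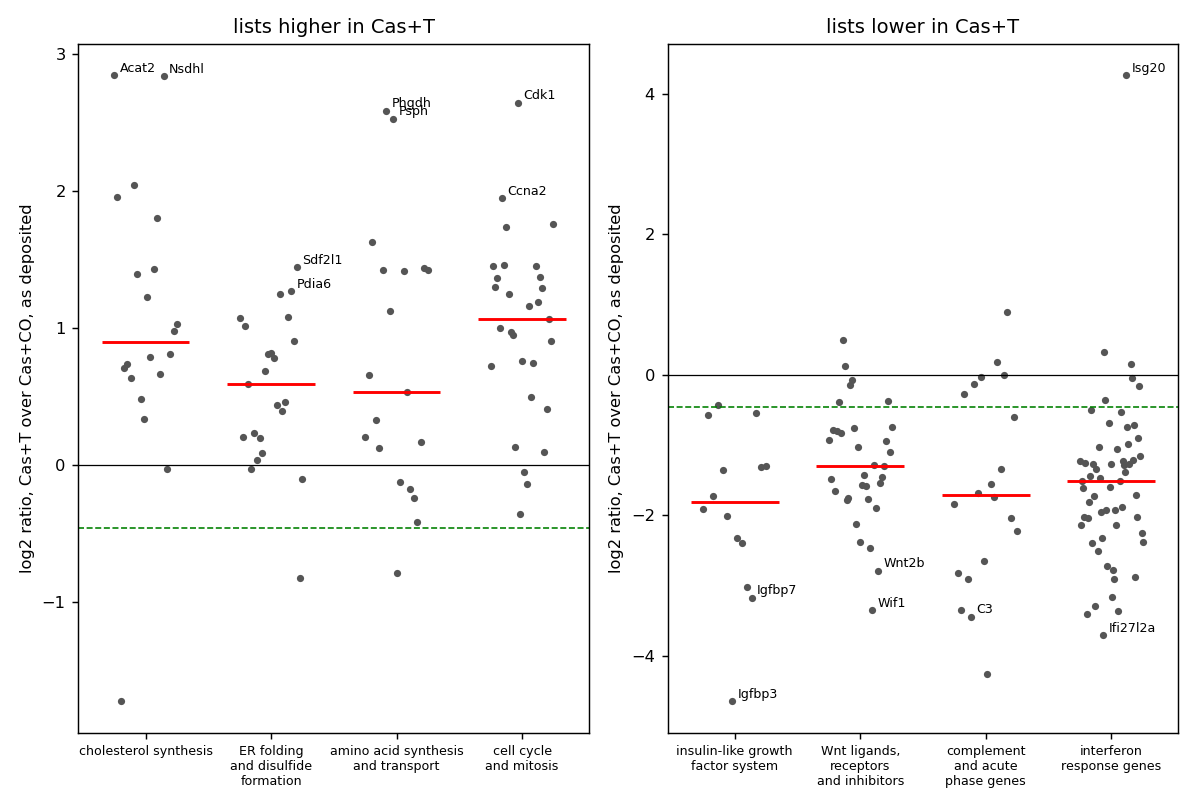
Each grey point is a gene of the list named on the x axis, and the y axis gives its log2 ratio, Cas+T over Cas+CO, as deposited. The red bar is the list's median and the dashed green line the median of all genes compared (-0.46), and 1 or 2 of the genes farthest from 0 in each list are named. Points of the lists on the left lie mostly above that line, and those on the right mostly below it.

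RNA of growth factor ligands, receptors, binding proteins and inhibitors was lower in several families, and signalling itself was not measured. The TGF-beta, BMP and activin list stayed within the limit (-0.25), with 2 genes higher and 11 lower of 29 (3 and 7 after scaling). In the insulin-like growth factor system 11 of 14 genes were lower and 0 higher (8 lower after scaling). Its binding proteins, which hold the ligands outside the cell, led: Igfbp3 had 65.8 TPM in Cas+CO, 1.67 in Cas+T and 1.52 in Sham, and Igfbp7 569, 62.2 and 61.8 TPM. Wnt ligands, receptors and inhibitors were lower in 20 of 33 (15 after scaling), including both the secreted inhibitor Wif1 (10.9 against 0.17 TPM) and the ligand Wnt4 (24.5 against 7.80 TPM). In the FGF and EGF list 15 of 24 (8 after scaling) were lower, such as the receptor Fgfr2 (199 against 60.6 TPM), and the single higher gene was the ligand Egf (3.38 against 19.8 TPM). Immediate early genes, which cells switch on within minutes of a stimulus, were lower in 16 of 22 (9 after scaling), for example Jun (58.1 against 16.8 TPM).

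Epithelial markers outside the secretory families gave no common direction. Among all genes 6.89% were higher and 23.4% lower as deposited, and 9.4% and 11.9% after scaling. Of the general epithelial genes 0 were higher and 3 lower of 18, and the summed level was 4528 TPM in Cas+CO and 3637 in Cas+T. Cdh16, a kidney-type cadherin, was lower (847 against 237 TPM). Clear cell genes, which mark the acidifying cells of the duct, were split: Car2 had 16.5 against 71.9 TPM, but the proton pump subunit Atp6v1b1 had 34.8 against 8.44 TPM. Basal cell genes were lower in 6 of 14 as deposited and in 1 after scaling, while Krt15 was higher (10.2 against 81.3 TPM). Claudins and tight junction genes had 2 higher and 10 lower of 25 as deposited, and 3 and 6 after scaling. Cldn10, a channel-forming claudin, had the largest ratio of the tight junction genes, with 118 TPM in Cas+CO, 3.09 in Cas+T and 17.9 in Sham. Kif12, a kinesin found in kidney and bile duct lining, had 57.7, 0.28 and 0.19 TPM.

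Of 17 lists of other cell types 13 had a median at least 0.5 (log2) below that of all genes and 4 did not (pericyte, neutrophil, nerve and germ cell lists). In bulk tissue fewer cells of a type and less RNA per cell cannot be told apart. Adipocyte genes were lower in 16 of 17 (15 after scaling), and their summed level was 2702 TPM in Cas+CO, 206 in Cas+T and 105 in Sham. Cfd (adipsin) had 524 against 17.0 TPM and Adipoq (adiponectin) 124 against 4.23 TPM, and a fat pad adjoins the epididymis. Red blood cell genes summed to 2732 TPM in Cas+CO, 45.2 in Cas+T and 82.9 in Sham, and 6 of 6 were lower as deposited and 4 after scaling. Hba-a1 and Hba-a2, near-identical copies of alpha globin, had 1082 and 514 TPM in Cas+CO, and Hbb-bs, a beta globin, had 1043 against 14.9 TPM. Slc4a1, the anion exchanger of the red cell membrane, stayed under 1 TPM in all 3 libraries. Of the fat genes 1, Cidea, was listed at 0 in Cas+T, and of the globin genes Hba-a2 was.

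Matrix and vessel genes went in the same direction. Among all genes 23.4% were lower as deposited and 11.9% after scaling. Fibroblast genes were lower in 22 of 25 (17 after scaling) and summed to 1994 TPM in Cas+CO, 324 in Cas+T and 336 in Sham. Dcn (decorin, a collagen-binding proteoglycan) had 881 against 61.8 TPM, and Col3a1 304 against 28.6 TPM. Collagens were lower in 21 of 31 (14 after scaling) and higher in 1. Endothelial genes were lower in 17 of 18 (13 after scaling), with Pecam1 at 14.9 against 1.53 TPM. Smooth muscle genes were lower in 10 of 18 as deposited but in 3 after scaling, which is near the share of all genes. They summed to 1372 TPM in Cas+CO, 815 in Cas+T and 1597 in Sham. Matrix metalloproteases and their inhibitors were lower in 11 of 16 (8 after scaling).

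Immune genes were lower along with these. Macrophage and phagocyte genes were lower in 18 of 26 (15 after scaling) and higher in 0, and summed to 1641 TPM in Cas+CO, 289.8 in Cas+T and 275 in Sham. Spp1 (osteopontin) had 221 against 0.56 TPM and Mmp12, the macrophage elastase, 161 against 0.50 TPM. B and plasma cell genes were lower in 15 of 18 (13 after scaling), led by the antibody light chain gene Igkc (315 against 4.16 TPM) and Jchain (37.1 against 0.19 TPM), which joins secreted antibodies. MHC class II genes were lower in 7 of 11 (5 after scaling), with Cd74 at 208 against 16.8 TPM. The class I gene H2-T23 had 89.8 against 0.18 TPM, but genes of this region vary between mice of an outbred stock and resemble each other, so single values there are uncertain. T and NK cell markers were low, with a summed level of 44 TPM in Cas+CO, 12.8 in Cas+T and 88.3 in Sham. The class I list was lower in 14 of 22 (10 after scaling) genes, yet its summed level was higher, 3188 TPM in Cas+CO and 4156 in Cas+T. Most of that sum is B2m, the light chain of class I molecules, with 1837 against 3541 TPM, under 2-fold apart as deposited (log2 ratio 0.95) and over it after scaling (1.39).

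Signalling genes of defence were lower as well. Interferon response genes were lower in 45 of 58 (31 after scaling), such as Ifi27l2a (75.0 against 4.84 TPM) and the guanylate-binding protein Gbp2 (33.2 against 2.23 TPM). One member stood far in the opposite direction, Isg20, an RNA exonuclease, with 18.8 TPM in Cas+CO, 378 in Cas+T and 576 in Sham. Complement and acute phase genes were lower in 13 of 20 (12 after scaling), including C3, the central component of the cascade. Chemokines and their receptors were lower in 19 of 29 (12 after scaling), and the interleukin and TNF list in 38 of 54 (19 after scaling). Neutrophil markers did not follow: of 6 compared 2 were lower and 2 higher, Ltf and S100a8 (3.46 against 44.3 TPM), which epithelia also express.

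**Figure D5:**
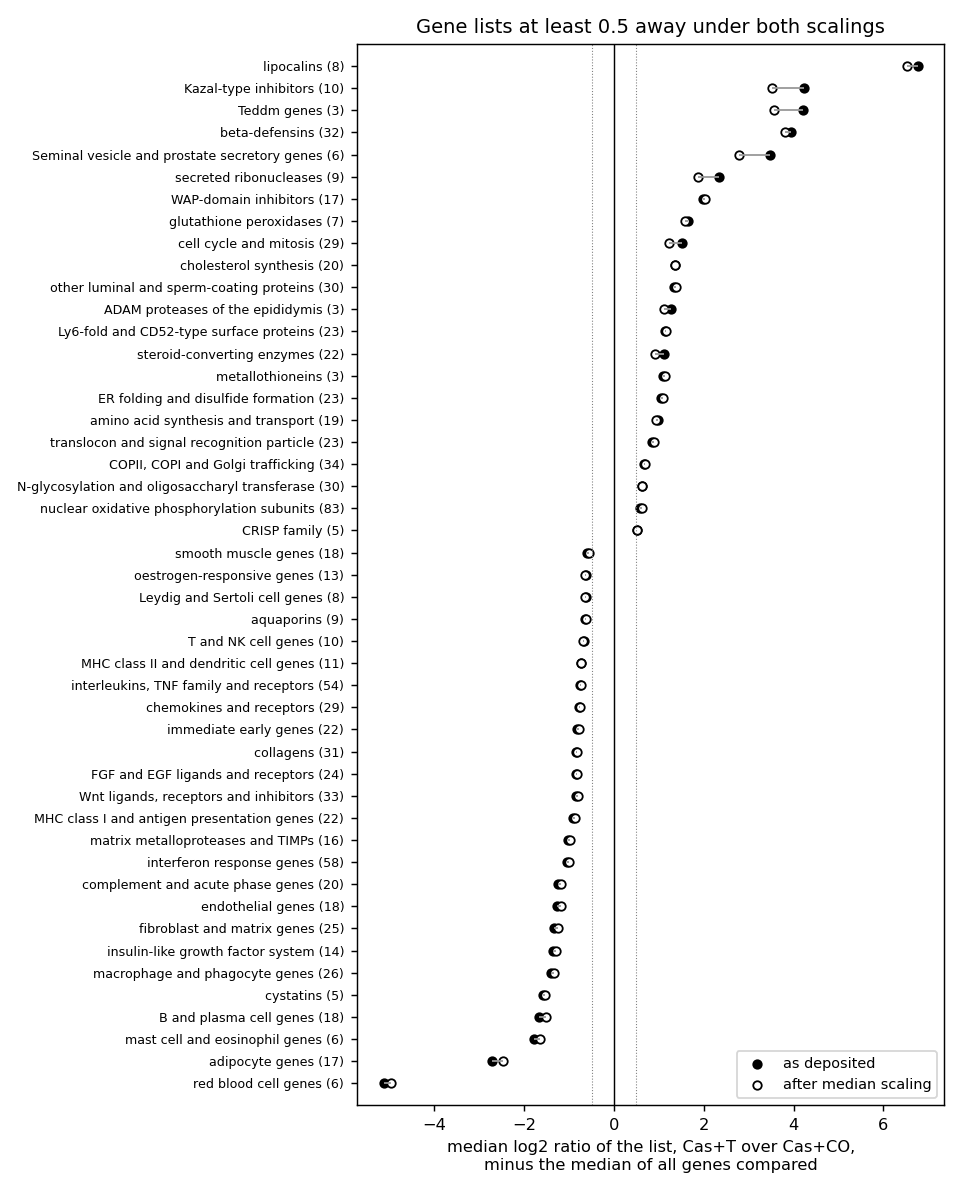
For the 22 lists higher and the 25 lower under the limit of 0.5, the x axis gives the median log2 ratio of the list minus that of all genes compared, with the number of genes compared in brackets. Filled points are values as deposited and open points those after median scaling. Several secretory lists, led by lipocalins, lie at the top and the fat and red blood cell lists at the bottom. Cystatins, also secretory, lie among the lower lists (-1.58), and the CRISP family is the least of the higher ones (0.52). The 2 scalings give similar relative medians for most lists. They differ more for Kazal-type inhibitors (4.24 and 3.52), Teddm genes (4.21 and 3.56) and seminal vesicle and prostate genes (3.48 and 2.78).

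Of the 92 lists, 22 had a median at least 0.5 (log2) above that of all genes under both scalings, 25 at least 0.5 below, and 45 neither. Of those lower, the aquaporin and oestrogen-responsive lists turned the other way with a minimum of 10 TPM, and the aquaporins also without genes listed at 0. Among those near the median of all genes were Hox genes, zinc finger genes of the Zfp series, splicing factors, autophagy genes, proteasome subunits, heat shock genes and circadian clock genes. The zinc finger list was near the share of all genes as deposited and under it after scaling, with 87 of 354 lower as deposited and 21 after scaling, against 23.4% and 11.9% of all genes. Npy, listed with nerve genes as a neuropeptide, was an exception within its list: 1.53 TPM in Cas+CO, 381 in Cas+T and 731 in Sham, while the myelin gene Mbp was lower (19.9 against 3.89 TPM).

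Some genes with large differences belonged to none of the lists and were chosen after their values were seen. Rhcg, an ammonia channel, had 1.02 TPM in Cas+CO, 169 in Cas+T and 105 in Sham. Ntsr2, a neurotensin receptor, had 0.11, 101 and 90.5 TPM in that order, and Ido1, which breaks down tryptophan, 2.55, 265 and 255 TPM. In all 3 the corn oil library was far under the others. Alpl, a surface alkaline phosphatase, had 2.54 against 105 TPM, and Gldc, the glycine decarboxylase of mitochondria, 4.31 against 152 TPM. Ace, the angiotensin-converting enzyme, had 33.8 against 276 TPM, and Ap1s2, a vesicle adaptor subunit encoded on the X chromosome, 210.1 against 1421 TPM. In the other direction Wsb1, a ubiquitin ligase subunit, had 408 TPM in Cas+CO, 27.1 in Cas+T and 9.71 in Sham. Inmt, a methyltransferase, had 759, 65.8 and 70.5 TPM, and Cav1, the coat protein of caveolae, 375, 39.6 and 33.8 TPM. Of these 3 the corn oil library was the highest.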

How the data were processed

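Epididymal RNA of Sham, Cas+CO and Cas+T mice was sequenced as 1 library per group. The authors deposited 1 log2 value per gene and library. The unit is not named, but 2 to the power of the value, minus 1, sums to nearly the same total in each library, so these were read as log2(TPM + 1). For the aligner, genome build and strand setting, nothing was found in the labels or headers: not given in the sources used here. Symbols missing from the deposited table were looked up by gene ID in GENCODE M21 (GRCm38), for 937 rows without a symbol, and 20 of all IDs had no match. Rows sharing a symbol were summed (19 symbols).

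Genes at 1 TPM or more in either library were compared with a pseudocount of 1 and a limit of 2-fold, as deposited and after median scaling, in Python 3.11.15 with pandas 2.3.3 and NumPy 2.4.6. The script was tested on simulated data. With 1 library per group there is no test, no p-value and no error, and depth is unknown. A list counts as higher or lower if its median lies 0.5 (log2) or more from that of all genes under both scalings.

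Named genes are the 20 largest log2 ratios in each direction among genes with a proper symbol that reach 10 TPM, the 10 largest TPM differences in each direction, up to 4 members per list with the largest ratio after median scaling, all members of families of 10 or fewer, and single receptors and enzymes, among them Srd5a1, Srd5a2 and Rhox5. Some genes the rule names are not reported here. Outside this rule, and chosen after their values were seen, are Ccna2, Defb25, Defb29, Defb47, Defb48, Etv4, Etv5, Gstt1, Hsd11b1, Hsd11b2, Mki67, Ovch2, Psat1, Shmt2, B2m, and the genes in none of the lists (Ace, Alpl, Ap1s2, Cav1, Gldc, Ido1, Inmt, Ntsr2, Rhcg and Wsb1). The comparison, its members and the lists were chosen with earlier results of these data known. Promoter sequences are RefSeq's (GRCm38.p6).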

Additional observations from a re-analysis of the deposited data

How the results depend on the processing

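The count of lower genes and everything counted from it depended on the scaling. With median scaling 1928 genes were lower, higher genes made up 44.1% of those apart, the median log2 ratio was -0.0582 and the TPM gained were 47.5% of the total, against 11.1% lost. Scaling to the same total without the 50 most abundant genes gave a share of higher genes of 27.5%, a median of -0.34 and a gain of 28.0% against a loss of 17.9%. With a minimum of 10 TPM, 628 genes were higher and 1821 lower, the share was 25.6% and the median -0.40. A pseudocount of 0.1 gave a median of -0.51 and no minimum gave -0.26. With genes listed at 0 left out the share was 20.7% and the median -0.46. At a 4-fold limit 403 genes were higher and 859 lower (31.9% higher), and after median scaling 453 and 385 (54.1%). Of 92 lists, 47 were described as higher or lower, and 36 of these stayed at least 0.5 from the median of all genes in the same direction with no minimum, 45 with a minimum of 10 TPM and 46 with genes listed at 0 left out. Aquaporins reversed to 1.56 above the median of all genes with a minimum of 10 TPM and to 0.38 with genes listed at 0 left out, and oestrogen-responsive genes reversed to 0.0071 with a minimum of 10 TPM. No paired analysis was possible because each group has 1 library, and for the same reason no library could be left out. Depth is unknown, so no counting error can be set beside genes of a few TPM.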
